A study of Homo sapiens with 21 samples.

Results

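RNA-seq of subcutaneous A549 tumors compared 7 tumors from mice given Oxy210 with 7 tumors from mice given the vehicle, out of 21 tumors in the series. These 14 tumors were taken by their group label, and every gene and gene list below was read from their raw counts. A549 is a human lung adenocarcinoma line, here the luciferase-bearing derivative A549-Luc2, which was injected with Matrigel into the hind flank of athymic nu/nu female mice of 6 to 8 weeks. Athymic mice lack mature T cells, so the tumors grew without that part of immunity. Animals were randomized at tumor sizes of 80 to 100 mm3 into groups of 10 mice. Oxy210 was given daily by mouth at 50 mg/kg in 3% DMSO, 7% ethanol, 5% PEG400 and 85% corn oil, and control mice received this formulation without a compound. The remaining 7 tumors came from mice given the related compound Oxy186 at the same 50 mg/kg dose and were used for 1 direct comparison.

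Oxy210 is a semisynthetic oxysterol, an oxidized derivative of cholesterol. Natural oxysterols bind several sterol sensors: liver X receptors (LXR) switch on cholesterol export genes, INSIG proteins hold back the SREBP factors that drive cholesterol synthesis, and SMO carries the Hedgehog (HH) signal to the GLI transcription factors. The study followed HH/GLI and WNT/β-catenin signaling, and Oxy210 had been described as an inhibitor of TGF-β signaling as well. The question here is which genes and pathways differed in tumors after Oxy210.

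The counts are reads on human genes, with reads from the mouse stroma removed by the authors through alignment to both genomes. Total counts ranged from 13818998 to 17865119 in control tumors and from 13787493 to 15758662 in Oxy210 tumors, so depth overlapped between the groups. Summed levels of 6 epithelial markers, KRT8 the strongest, were 9230 to 13600 CPM (counts scaled to the library total) in control tumors and 7340 to 13000 CPM in Oxy210 tumors. NKX2-1, SCGB1A1 and the surfactant genes SFTPA1, SFTPA2, SFTPB and SFTPC did not pass the filter on low counts, so these defining genes of the lung epithelium were at or near 0. Human reads on 9 fibroblast markers summed to 117 to 239 CPM in control and 81 to 159 CPM in Oxy210 tumors, with LUM holding 66% of them. Reads on 6 leukocyte markers summed to 12.4 to 31.8 and 12.4 to 20.7 CPM, on 6 endothelial markers to 1.84 to 6.9 and 1.98 to 5.35 CPM, and on 3 hemoglobin genes to at most 0.597 CPM. The labels name no batch, and separate animals are not stated for each tumor, so p-values measure the spread between these tumors.

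No gene met both criteria for a call between Oxy210 and control tumors, more than 2-fold and adjusted p up to 0.05 (edgeR quasi-likelihood test, Benjamini-Hochberg adjustment). Of 16396 genes tested, 0 were called, or 0%, and the smallest adjusted p was 0.196. At an unadjusted p under 0.05, 1403 genes were lower (8.56% of those tested) and 899 higher (5.48%). With each tumor's trend of counts on the GC content of genes removed (GC offsets), 0 genes were again called, the smallest adjusted p was 0.122, and 1239 genes were lower (7.56%) and 1120 higher (6.83%). The median standard error of a log2 fold change was 0.16 without and 0.14 with GC offsets, against a median absolute log2 fold change of 0.17 and 0.14, so a typical gene's difference was of the size of its error. DESeq2 on the same counts called 22 genes, 3 higher and 19 lower, among them STING1, CLDN3, COL17A1, DCN, NUDT8, SLCO1A2 and ZNF354C, which are described below. limma voom called 0.

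The split between lower and higher genes depended on the scaling. With library size alone in place of TMM factors, the median log2 fold change of all genes moved from 0.0051 to 0.059, and the counts at an unadjusted p under 0.05 became 897 lower and 1387 higher. The near balance with GC offsets depended on their centring as well. With GC offsets centred within each tumor the median was -0.017, and 1454 genes were lower and 930 higher. The differences of single genes and lists below are therefore given relative to the median gene under TMM.

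The difference between the groups followed the GC content of exons. In the decile of genes poorest in GC, the median log2 fold change was 0.14, and it declined through every decile to -0.285 in the decile richest in GC. In that richest decile 371 genes were lower and 7 higher at an unadjusted p under 0.05, whereas in the poorest decile 14 were lower and 106 higher. With GC offsets these counts became 119 lower and 119 higher in the richest decile and 103 lower and 63 higher in the poorest. Exon length, the bases in the union of all annotated exons of a gene, gave the opposite order. The median log2 fold change was -0.135 in the decile with the shortest exon length and 0.12 in the decile with the longest. GC offsets left part of the length order, from -0.078 to 0.06, and offsets for both GC and length removed it, with medians between -0.019 and 0.0056 across the deciles.

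Both trends varied within each group. The GC slope of a tumor is the change in log2 CPM, relative to the mean of the 14 tumors, for 10 more points of GC. It was between -0.20 and 0.35 in control tumors (median 0.034) and between -0.38 and 0.21 in Oxy210 tumors (median -0.16). The means differed by -0.15, which an exact two-sided permutation test over the 14 tumors did not separate (p = 0.156, adjusted over 7 tumor-level measures p = 0.223). The length slope, a measure added after the data were seen, was -0.13 to 0.034 per doubling of length in control and -0.043 to 0.086 in Oxy210 tumors (difference 0.063, exact permutation p = 0.0758, adjusted p = 0.223). On principal components of log2 CPM the groups overlapped as well. PC1 held 29.8% of the variance and its mean score differed by -25.1 (exact permutation p = 0.101, adjusted p = 0.223). After removal of the GC trend, PC2 with 17.8% of the variance ran from -36.0 to 20.6 in control tumors and from 3.0 to 22.3 in Oxy210 tumors (difference 27.6, exact permutation p = 0.00758, adjusted p = 0.0531).

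**Figure D1:**
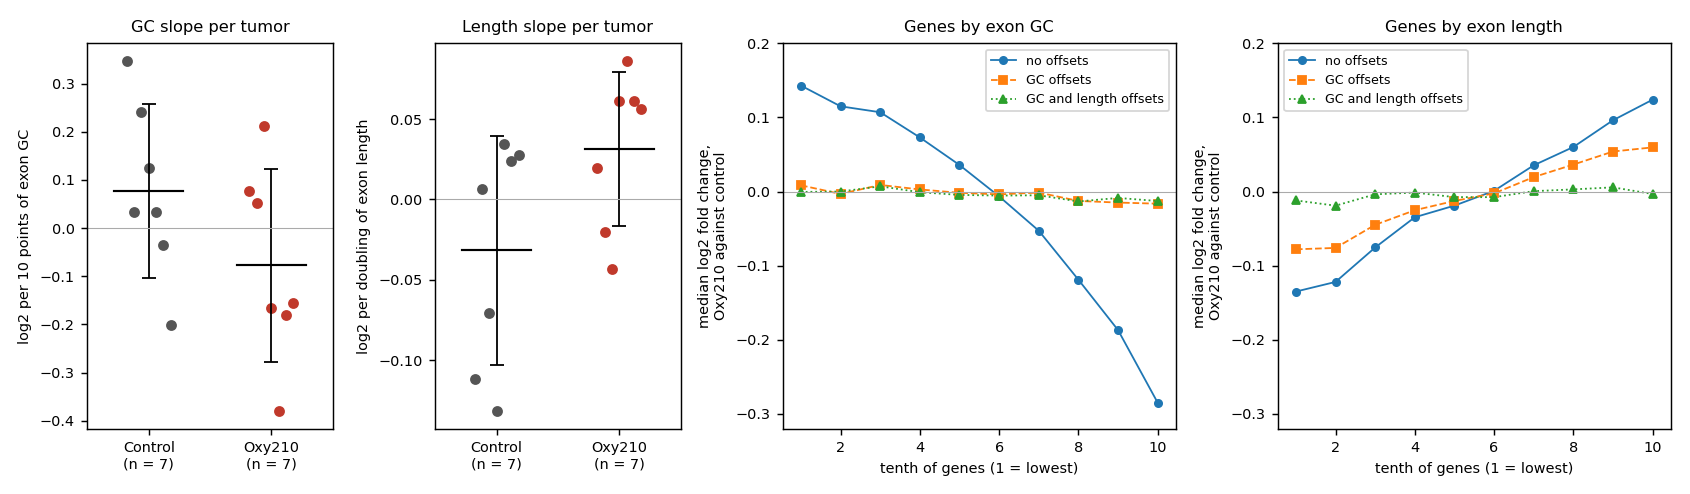
GC and length trends. The left panels plot the GC slope (log2 per 10 points of exon GC) and the length slope (log2 per doubling of exon length) of each tumor, with group mean and SD (bars, n = 7 each). The right panels plot the median log2 fold change of Oxy210 against control over deciles of genes ordered by exon GC or exon length, without offsets, with GC offsets and with GC and length offsets. Tumors of both groups overlap in both slopes, and the run from 0.14 to -0.285 over GC is flat once GC offsets are used.

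Genes are named below by their rank of evidence in either fit, or as members of a gene list. Lists and their members were chosen with earlier results of these data known. Their counts beside the share of all genes therefore describe these tumors and are no test. Among genes lower in Oxy210 tumors, STING1 (chr5:139475533-139482935, minus strand, GRCh38), the adaptor that turns cytosolic DNA sensing into an interferon response, was lower by more than 2-fold, short of the adjusted threshold. Its log2 CPM was 1.54, 1.97 and 2.77 (lowest, median and highest) in control tumors and 0.28, 1.01 and 1.31 in Oxy210 tumors. Every Oxy210 tumor was below every control tumor. The log2 fold change was -1.30 ± 0.25 (SE, n = 7 per group, edgeR adjusted p = 0.196) and -1.18 ± 0.23 with GC offsets (adjusted p = 0.135).

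RRAGA (chr9:19049427-19051025, plus strand) encodes a Rag GTPase that brings mTORC1 to the lysosome when amino acids are present. Its log2 CPM was 6.04, 6.16 and 6.46 in control and 5.57, 5.81 and 5.99 in Oxy210 tumors, again without overlap (log2 fold change -0.45 ± 0.097, edgeR adjusted p = 0.196). With GC offsets the difference was -0.41 ± 0.077, with an edgeR adjusted p of 0.122. VDAC2 (chr10:75210154-75231448, plus strand), a channel of the outer mitochondrial membrane that also restrains BAK, ran from 7.85 to 8.12 in control and from 7.39 to 7.81 in Oxy210 tumors. Its log2 fold change was -0.36 ± 0.093 (edgeR adjusted p = 0.204), and -0.43 ± 0.076 with GC offsets (edgeR adjusted p = 0.122).

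TRIB3, a pseudokinase induced by ATF4 under amino acid or ER stress, was at 5.20, 5.86 and 6.29 log2 CPM in control and 4.44, 5.03 and 5.45 in Oxy210 tumors. In 6 of 7 Oxy210 tumors it was below the lowest control tumor (log2 fold change -0.86 ± 0.18, edgeR adjusted p = 0.196, and -0.64 ± 0.17 with GC offsets). The mitochondrial NUDIX hydrolase NUDT8 had a log2 fold change of -1.19 ± 0.26, and -0.83 ± 0.16 with GC offsets. STMN3, a stathmin that binds tubulin, was at -0.85 ± 0.17 and -0.58 ± 0.17, VWA1, a matrix protein, at -0.83 ± 0.17 and -0.46 ± 0.10, and RHBDD2, a rhomboid family protein, at -0.60 ± 0.15 and -0.47 ± 0.095. The lower genes also held the processed pseudogenes AC026403.1 (-1.17 ± 0.20) and RPL13AP5 (-0.74 ± 0.15), whose reads cannot be told apart with certainty from those of their parent genes.

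Among genes higher in Oxy210 tumors, RASSF2 (chr20:4780023-4823608, minus strand), a RAS association domain protein known as a tumor suppressor, was at 5.22, 5.50 and 5.86 log2 CPM in control and 5.89, 6.05 and 6.27 in Oxy210 tumors. Every Oxy210 tumor was above every control tumor. The log2 fold change was 0.50 ± 0.10 without GC offsets (edgeR adjusted p = 0.196) and 0.50 ± 0.09 with them (edgeR adjusted p = 0.122).

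SYNE2, the giant nesprin that ties the nucleus to the cytoskeleton, was at 6.77 to 7.37 in control and 7.42 to 7.91 in Oxy210 tumors (log2 fold change 0.48 ± 0.11, and 0.40 ± 0.086 with GC offsets). The carotenoid-cleaving enzyme BCO2 (0.63 ± 0.14) and the lncRNA AC016705.2 (0.65 ± 0.15) did not overlap between groups either, but did once the GC trend was removed. EDAR, the ectodysplasin receptor, had a log2 fold change of 0.72 ± 0.17 and was above the highest control in 5 of 7 Oxy210 tumors. The pseudogene FAM238C stood at 0.74 ± 0.17, but its exons lie wholly within those of another gene on its strand.

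GC offsets brought other genes to the front. NEMF, which marks stalled ribosomes for quality control, was at 4.30, 5.04 and 5.26 log2 CPM in control and 5.04, 5.58 and 5.93 in Oxy210 tumors (log2 fold change 0.66 ± 0.16, and 0.53 ± 0.098 with GC offsets, edgeR adjusted p = 0.122). TEAD2, a DNA-binding partner of YAP, had a log2 fold change of 0.34 ± 0.11 that became 0.51 ± 0.086, and NUMBL, a Numb-like adaptor, had 0.33 ± 0.15 that became 0.50 ± 0.093. ZDHHC11, a palmitoyltransferase family member, moved from 0.47 ± 0.12 to 0.60 ± 0.12 and the pseudogene CSPG4P10 from 0.44 ± 0.15 to 0.64 ± 0.13. In all, 13 genes were lower (0.0793% of those tested) and 10 higher (0.061%) in every Oxy210 tumor than in any control tumor, and 21 (0.128%) and 27 (0.165%) after the GC trend was removed, of which 12 were shared with the first count.

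**Figure D2:**
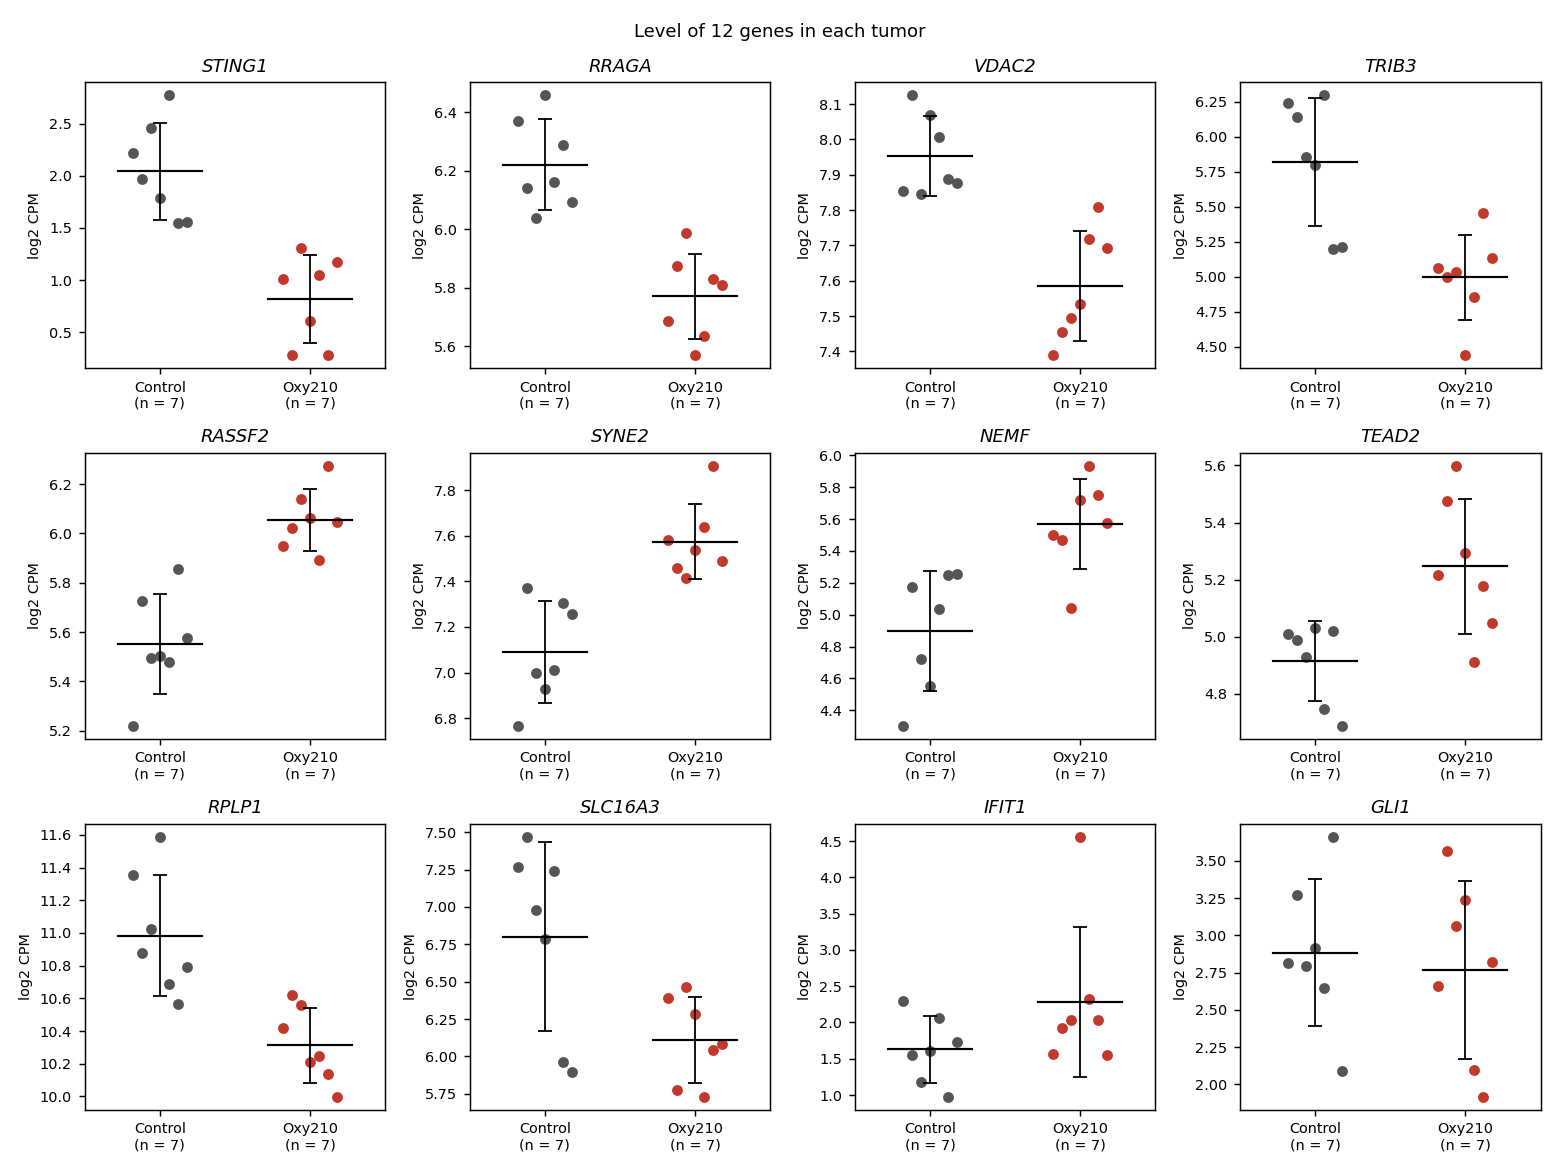
Level of 12 genes in each tumor. Each panel plots log2 CPM of control and Oxy210 tumors (points), with group mean and SD (bars, n = 7 each), on its own vertical axis. STING1, RRAGA and VDAC2 are lower and RASSF2 and SYNE2 higher in every Oxy210 tumor than in any control tumor, IFIT1 is set apart by 1 Oxy210 tumor, and GLI1 overlaps.

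Ribosomal proteins, the structural parts of the large and small ribosomal subunits, were lower as a group. Of 63 members tested, 32 were lower and 0 higher at an unadjusted p under 0.05, against 8.56% and 5.48% of all genes, and the median log2 fold change was -0.31 against 0.0051 for all genes. RPS10, at 0.21, was the only member above 0 in this fit. With GC offsets the median was -0.24 with 26 members lower, and with GC and length offsets it was -0.19. The large subunit (35 members, median -0.28, 15 lower) and the small subunit (28 members, median -0.32, 17 lower) stood side by side. The exon GC of the list was ordinary, with a median of 49.5% against 47.7% for all genes. Its exon length was shorter, with a median of 3252 against 4835 bases. This length joins the exons of all annotated transcripts of a gene, so it is not the length of the mature mRNA. Offsets for it need not remove a trend with mRNA length.

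RPLP1, an acidic stalk protein of the large subunit, was at 10.56, 10.87 and 11.59 log2 CPM in control and 10.00, 10.25 and 10.62 in Oxy210 tumors. The groups met at 1 Oxy210 tumor, and the log2 fold change was -0.70 ± 0.16 (edgeR adjusted p = 0.196), unchanged in size with GC offsets (-0.70 ± 0.15, adjusted p = 0.135). RPS28, of the small subunit, was lower in every Oxy210 tumor (7.17 to 8.09 against 6.64 to 7.11, log2 fold change -0.63 ± 0.14). RPLP0, the stalk's anchor, was at -0.52 ± 0.13 and -0.50 ± 0.13 with GC offsets. Ribosomal protein genes have many processed pseudogenes, so reads assigned to 1 member are uncertain.

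The spread of this list lay mostly among control tumors. The list level, the mean over members of log2 CPM minus each gene's mean over 14 tumors, was 0.64 and 0.47 in control replicates 4 and 1 and between -0.28 and 0.13 in the other 5 control tumors. All 7 Oxy210 tumors were between -0.32 and -0.033, below the control median of 0.087, but only 1 was below the lowest control. With the GC trend removed, 6 of 7 were below the control median. Without control replicate 1, 20 of 63 members were lower. Over the 14 fits that left out 1 tumor the median stayed between -0.38 and -0.22.

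Translation of these mRNAs is known to be tuned by mTORC1 through a run of pyrimidines at the 5′ end of the transcript, the TOP motif. RefSeq start windows (GRCh38.p14) were found for 50 of the 63 genes, in 65 windows. In 58.5% of those windows the first 5 transcribed bases were all C or T, against 5.17% of all 35116 windows. The median log2 fold change was -0.335 for the 38 genes with such a start and -0.24 for the 12 without, and -0.256 and -0.235 with GC offsets. The starts of the 3 members named above are shown for this feature, each with 20 bases before the annotated start and 15 after it. Capitals mark the unbroken pyrimidine run from the first transcribed base, which RPS28 lacks because its annotated start is an a.
RPLP1 (chr15:69452798-69452832, plus strand): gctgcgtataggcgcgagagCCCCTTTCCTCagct
RPLP0 (chr12:120201097-120201131, minus strand): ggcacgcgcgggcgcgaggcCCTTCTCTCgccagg
RPS28 (chr19:8321476-8321510, plus strand): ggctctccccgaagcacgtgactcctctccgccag

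C2H2 zinc finger genes, mostly KRAB-type repressors encoded in clusters on chromosome 19, were higher as a group. Of 98 members tested out of 122 listed, 39 were higher and 0 lower at an unadjusted p under 0.05, against 5.48% higher among all genes, with a median log2 fold change of 0.275. Without Oxy210 replicate 5, 24 were higher. With GC offsets 30 were higher and 0 lower with a median of 0.18, and 29 members were higher in both fits. With GC and length offsets the median was 0.16. These genes are poor in GC, with a median of 40.9%, and the decile of all genes between 40.6% and 42.7% GC had a median log2 fold change of 0.11 without offsets and 0.0089 with GC offsets.

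ZNF354C was at -0.70, 0.36 and 0.78 log2 CPM in control and 0.65, 1.42 and 2.10 in Oxy210 tumors (log2 fold change 1.201 ± 0.27, edgeR adjusted p = 0.196, and 1.09 ± 0.26 with GC offsets). ZNF616 and ZNF845, of the chromosome 19 clusters, had log2 fold changes of 0.72 ± 0.20 and 0.61 ± 0.18. In each of the 3 genes at least 5 of 7 Oxy210 tumors were above the highest control. The 60 members on chromosome 19 had a median of 0.28 and the 38 elsewhere 0.27. By list level all 7 Oxy210 tumors were above the control median of -0.17, and 4 were above the highest control tumor (0.09). With the GC trend removed these counts were the same, with Oxy210 tumors between 0.045 and 0.20 and control tumors between -0.25 and 0.077.

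Glycolysis genes, from glucose uptake to lactate export, were mostly lower. Of 21 members, 13 were lower (61.9%, against 8.56% of all genes) and 1 higher at an unadjusted p under 0.05, with a median log2 fold change of -0.37. With GC offsets 9 were lower (42.9%, against 7.56%) and 1 higher, the median was -0.23, and 7 members were lower in both fits. The list is GC-rich, with a median of 54.6%. The lowest member was the first enzyme of the pathway, HK2, at -1.18 ± 0.42 (SE) and -1.12 ± 0.44 with GC offsets, a gene named after its values were seen.

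The lactate exporter SLC16A3 was at 5.90, 6.98 and 7.47 log2 CPM in control and 5.73, 6.08 and 6.46 in Oxy210 tumors. All Oxy210 tumors were below the control median, while 2 control tumors lay within the Oxy210 range. Its log2 fold change of -0.77 ± 0.22 (edgeR adjusted p = 0.233) became -0.41 ± 0.18 with GC offsets. PFKL, the liver-type phosphofructokinase, moved from -0.49 ± 0.14 to -0.17 ± 0.083, and PGAM1, a phosphoglycerate mutase, from -0.29 ± 0.092 to -0.23 ± 0.073. PFKFB4, which raises the activator of phosphofructokinase, was at -0.60 ± 0.19 and -0.46 ± 0.20. PFKM, the muscle-type phosphofructokinase, was the higher member, at 0.21 ± 0.089 and 0.23 ± 0.078. By list level 5 control tumors were between 0.15 and 0.54, and control replicates 6 and 7, at -0.25 and -0.16, were within the Oxy210 range of -0.31 to 0.0018. With the GC trend removed, 6 of 7 Oxy210 tumors were below the control median. Without control replicate 5, 9 of 21 members were lower, and 5 with GC offsets.

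HIF targets, which answer to low oxygen and include regulators of metabolism and pH, had a median log2 fold change of -0.26, and -0.28 with GC offsets. Of 25 members, 6 were lower (24%, against 8.56% of all genes) and 0 higher, and 4 were lower with GC offsets (16%, against 7.56%). FAM162A, a hypoxia-responsive mitochondrial protein, was at -0.27 ± 0.12 and -0.41 ± 0.10. Count and median rested on single tumors: without control replicate 2, 0 of 25 members were lower (2 with GC offsets) with a median of -0.14, and without control replicate 5, 1 was lower with a median of -0.13. The list level spread from -0.49 to 0.77 in control and from -0.51 to 0.40 in Oxy210 tumors.

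Nuclear genes of oxidative phosphorylation were also lower by their median, -0.22 without and -0.23 with GC offsets. Of 42 members, 12 were lower without GC offsets (28.6%, against 8.56% of all genes) and 16 with them (38.1%, against 7.56%), 0 were higher in either fit, and 38 had log2 fold changes below 0. The medians of the complexes were -0.22 for complex I, -0.09 for complex II, -0.20 for complex III, -0.28 for complex IV and -0.24 for ATP synthase. ATP5F1D, a subunit of the ATP synthase central stalk, was at 5.18 to 6.20 log2 CPM in control and 4.10 to 5.65 in Oxy210 tumors (log2 fold change -0.76 ± 0.22, and -0.49 ± 0.13 with GC offsets). NDUFS8, an iron-sulfur subunit of complex I, was at -0.51 ± 0.20 and -0.35 ± 0.15. Without control replicate 4, which had the highest list level (0.57), 2 of 42 were lower, and 3 with GC offsets, and the median was -0.15. The 13 mRNAs that mitochondria encode themselves had a median of 0.057 and -0.013 with GC offsets. MT-ND4L, a membrane subunit of complex I, was higher by 0.46 ± 0.15, and its reading frame overlaps that of a neighbour.

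**Figure D3:**
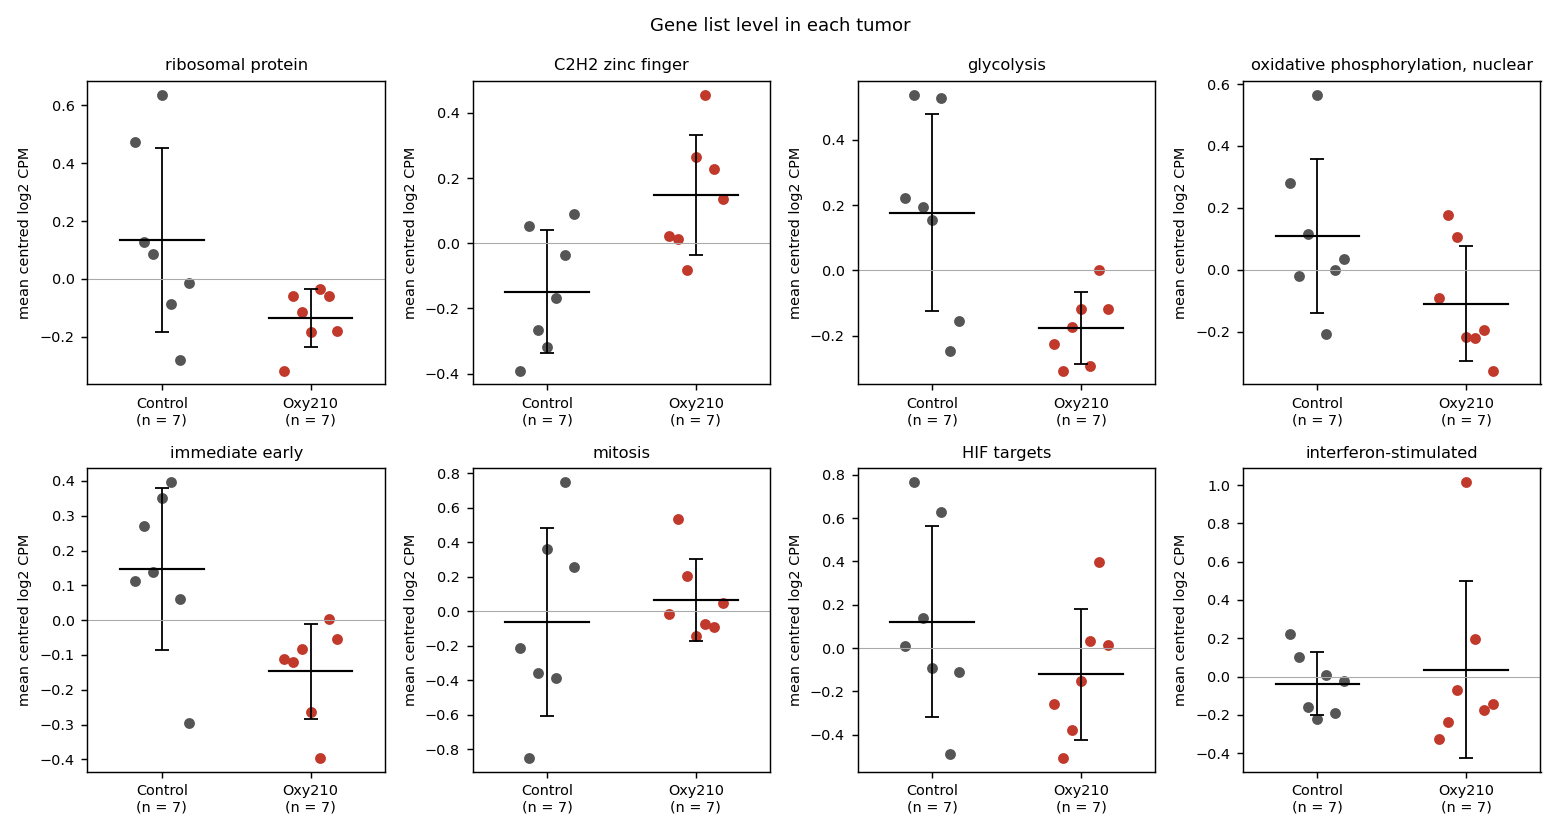
Level of 8 gene lists in each tumor. Each point is the mean over list members of log2 CPM minus the gene's mean over the 14 tumors, without GC offsets; bars are group mean and SD (n = 7 each), and panels have their own vertical axes. Oxy210 tumors lie below the control median in all 7 cases for ribosomal proteins, glycolysis and immediate early genes and above it for C2H2 zinc fingers and mitosis, with overlap in every panel, and 1 Oxy210 tumor stands at 1.01 for interferon-stimulated genes.

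Genes of growth factor and stress signaling were lower in part. Immediate early genes, switched on within minutes of a stimulus, had a median log2 fold change of -0.29 (6 of 22 or 27.3% lower, against 8.56% of all genes, and 0 higher), and -0.15 with GC offsets (4 or 18.2% lower, against 7.56%). Without control replicate 5, 3 were lower, and with GC offsets 2 without Oxy210 replicate 4. FOSL1, a FOS family transcription factor, was at -0.77 ± 0.21 and -0.58 ± 0.17, and KLF2, a Krüppel-like factor, at -0.84 ± 0.25 and -0.55 ± 0.18. ATF4 and ER stress genes had a median of -0.16 and -0.17 with GC offsets, with 7 of 24 lower (29.2%, against 8.56% and 7.56% of all genes) and 1 higher in each fit, 5 of them lower in both. With GC offsets and without control replicate 1, 4 were lower. Beside TRIB3, the members lower without GC offsets included the ER protein HERPUD1 (-0.47 ± 0.15 and -0.58 ± 0.16) and the serine-to-glycine enzyme SHMT2 (-0.37 ± 0.12, and -0.22 ± 0.11 with GC offsets, where it no longer passed an unadjusted p under 0.05). Heat shock genes had a median of 0.19 and 0.14. Without GC offsets 1 of 18 was lower (5.56%, against 8.56% of all genes) and 1 higher (5.56%, against 5.48%), and 8 were higher without control replicate 6.

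Extracellular matrix and adhesion genes had 10 of 29 members lower (34.5%, against 8.56% of all genes) and 3 higher (10.3%, against 5.48%), with a median of -0.17 that became -0.09 with GC offsets (8 lower, 3 higher). COL17A1, a hemidesmosome collagen, was at 4.67, 5.43 and 6.43 log2 CPM in control and 3.77, 4.51 and 5.06 in Oxy210 tumors (log2 fold change -1.14 ± 0.29, and -1.04 ± 0.30 with GC offsets). LAMB3, a laminin chain it joins in the basement membrane, was at -0.51 ± 0.15 and -0.34 ± 0.12. The separate list of epithelial-mesenchymal transition had a median of 0.032. Of its 17 members, 3 were lower (17.6%, against 8.56% of all genes) and 1 higher (5.88%, near the 5.48% of all genes). The lower ones were the tight junction claudins CLDN3 (-1.23 ± 0.31 and -0.77 ± 0.23) and CLDN4 (-0.54 ± 0.17 and -0.41 ± 0.11) and the splicing regulator ESRP1 (-0.58 ± 0.24), and the integrin ITGB6 was higher (0.66 ± 0.28). Human reads on the fibroblast marker DCN were lower by a log2 fold change of -1.28 ± 0.32, and on LUM of -0.50 ± 0.21, while the other tested fibroblast markers stood at 0.12 ± 0.20 (COL1A1) and 0.24 ± 0.25 (ACTA2). Of the 3 tested leukocyte markers, LYZ was at -0.90 ± 0.29, CD14 at -0.80 ± 0.35 and ITGAM at 0.07 ± 0.17. The counts are human reads on tumors of a human cell line grown in mice, so these markers do not measure numbers of fibroblasts or leukocytes. The source of these reads, and their part in the matrix result, was not tested.

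Airway and epithelial lineage genes gave 3 of 20 members lower (15%, against 8.56% of all genes) and 0 higher, with a median of -0.18. With GC offsets 3 were lower and 2 higher (10%, against 6.83% of all genes), with a median of -0.055. The gel-forming mucin MUC5AC was at 11.50, 12.93 and 13.39 log2 CPM in control and 11.17, 11.57 and 12.47 in Oxy210 tumors (log2 fold change -0.92 ± 0.29, and -0.68 ± 0.24 with GC offsets). The membrane mucin MUC1 was at -0.78 ± 0.19 and -0.60 ± 0.13, and the keratin KRT19 at -0.78 ± 0.21 and -0.57 ± 0.16. The bile salt and organic anion transporter SLCO1A2 was higher, by 1.08 ± 0.28 and 0.95 ± 0.23, at log2 CPM of 0.62 to 1.96 in control and 1.42 to 2.95 in Oxy210 tumors.

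Sterol-responsive genes stood closer to the median gene. Cholesterol synthesis and uptake had 3 of 25 members lower (12%, near the 8.56% of all genes) and 0 higher, with a median of -0.10, and 2 lower with a median of -0.12 with GC offsets. Leaving out 1 tumor gave 1 (control replicate 1 or Oxy210 replicate 4) to 6 (control replicate 2) lower members and a median between -0.175 and -0.044. INSIG1, itself an SREBP target, was at 5.00, 5.56 and 5.76 log2 CPM in control and 4.37, 5.13 and 5.33 in Oxy210 tumors, below the control median in every Oxy210 tumor (log2 fold change -0.45 ± 0.14, edgeR adjusted p = 0.261). The list of LXR targets, which also holds the receptor gene NR1H2, had 3 of 11 members lower (27.3%, against 8.56%) and 1 higher, with a median of -0.09. With GC offsets 2 were lower (18.2%, against 7.56%), with a median of -0.12. Log2 fold changes ran from -0.66 (PLTP) to 0.50 (ABCA1, which did not pass an unadjusted p under 0.05). With GC offsets the same genes were lowest and highest, at -0.48 and 0.435. Without control replicate 3, 1 was lower, with GC offsets 0 without control replicate 2, and the median ran from -0.20 to -0.025 over the fits without 1 tumor. SREBF1, the lipogenic SREBP gene, was at -0.49 ± 0.16 and -0.25 ± 0.12, the receptor gene NR1H2 (LXRβ) at -0.36 ± 0.16 and -0.18 ± 0.08, and MYLIP, which degrades the LDL receptor, at 0.41 ± 0.17 and 0.39 ± 0.16. Oxysterol handling (15 genes) and fatty acid synthesis (15 genes) had medians of -0.046 and 0.018.

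Of 14 HH pathway genes tested, 0 were lower or higher without GC offsets (median -0.01), and 3 were higher with them (21.4%, against 6.83% of all genes, median 0.076): the ligand SHH (0.42 ± 0.20), the signal transducer SMO (0.26 ± 0.091) and the kinase STK36 (0.24 ± 0.092). The GLI3, DHH and GAS1 genes did not pass the filter on low counts. GLI1, an HH target as well as an effector, was at 2.09, 2.81 and 3.66 log2 CPM in control and 1.92, 2.82 and 3.57 in Oxy210 tumors. The groups overlapped almost fully, and the 95% interval of its log2 fold change of -0.09 ran from -0.63 to 0.45. GLI2 was at -0.13 (-0.41 to 0.15). With GC offsets both were above 0, at 0.052 and 0.062. By list level 2 of 7 Oxy210 tumors were above the control median, and 6 of 7 with the GC trend removed.

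WNT ligands, receptors and transducers had 2 of 34 members lower (5.88%, against 8.56% of all genes) and 2 higher (5.88%, against 5.48%). Their median was -0.035, and 0.046 with GC offsets. By list level all 7 Oxy210 tumors were below the control median, and 2 with the GC trend removed. WNT targets had 1 of 16 higher (6.25%, near the 5.48% of all genes) and 0 lower (median 0.037). With GC offsets 2 were higher (12.5%, against 6.83%) and 1 lower (6.25%, against 7.56%). By list level 6 of 7 Oxy210 tumors were above the control median, with and without the GC trend. Targets of TGF-β gave 0 of 20 in either direction (median -0.044), and with GC offsets 1 higher (5%, against 6.83% of all genes). Of the RT-qPCR gene list, 14 genes were tested, 0 passed an unadjusted p under 0.05 without GC offsets, and AXIN2, a feedback inhibitor of WNT, was higher with them (0.28 ± 0.15 and 0.41 ± 0.18). The 95% intervals of the log2 fold change were -0.38 to 0.25 for CCND1, -0.50 to 0.23 for MYC, -0.47 to 0.40 for TCF7 and -0.35 to 0.44 for TNFRSF19. For JUNB the interval was -0.51 to 0.21, for ATF3 -0.75 to 0.049 and for SMURF2 -0.13 to 0.37. Of the genes of epithelial-mesenchymal transition measured by RT-qPCR, SNAI1 (-1.09 to 0.17), ZEB1 (-0.18 to 0.64), VIM (-0.68 to 0.049) and TJP1 (-0.09 to 0.42) also had intervals that held 0. A 2-fold decrease lies outside each of these intervals but that of SNAI1.

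Proliferation genes overlapped between the groups. For 25 mitosis genes the median was 0.115 (0.0475 with GC offsets) and for 25 DNA replication genes 0.088 (0.13). Among the latter 1 was higher (4%, against 5.48% of all genes), or 10 without control replicate 6. The mitosis level spread from -0.85 to 0.75 in control tumors, wider than the range from -0.15 to 0.53 in Oxy210 tumors. All 7 Oxy210 tumors were above the control median of both lists. With the GC trend removed, 7 were above it for DNA replication and 4 for mitosis. In both lists 0 were above the highest control tumor.

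Interferon-stimulated genes had a positive median, and 1 Oxy210 tumor stood above all others. Of 25 members, 4 were higher (16%, against 5.48% of all genes) and 1 lower (4%, against 8.56%), with a median of 0.18. With GC offsets 4 were higher (16%, against 6.83%), or 0 without control replicate 3. By list level, however, 5 of 7 Oxy210 tumors were below the control median, with and without the GC trend. The level of the list was 1.01 in Oxy210 replicate 4 and between -0.33 and 0.20 in the other 6 Oxy210 tumors, against -0.22 to 0.22 in control tumors. IFIT1, an antiviral RNA-binding protein, was at 4.55 log2 CPM in that tumor and at 1.56 to 2.32 in the other Oxy210 tumors, against 0.98 to 2.30 in control tumors. With all 14 tumors its log2 fold change was 1.06 ± 0.44, and without Oxy210 replicate 4 it was 0.24 ± 0.23. For PARP9 the values were 0.39 ± 0.15 and 0.23 ± 0.11, and for IFIT2 0.37 ± 0.15 and 0.37 ± 0.16. Without that tumor the median of the list was 0.0073 and 1 member was higher. In that fit OASL (-0.73 ± 0.21), ISG15 (-0.675 ± 0.265) and IRF7 (-0.50 ± 0.18) were below 0, short of the adjusted threshold. Over the fits without 1 tumor, 0 to 3 members were lower and 1 to 6 higher.

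Interferon acts on these genes through the interferon-stimulated response element, searched here on either strand as a pair of GAAA sites with any 2 bases (NN) between them. It was present in 64.3% of the 28 RefSeq start windows of this list (250 bases before to 50 after the start, 20 genes matched) and in 3.57% of all 35116 windows. The windows of the genes just described are printed with the motif in capitals, on the gene's strand, where it reads as its reverse complement. A match in letters is no evidence of binding, and IFIT2 had no window with a match.
IFIT1 (chr10:89392495-89392541, plus strand): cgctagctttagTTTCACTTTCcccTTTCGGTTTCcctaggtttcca
PARP9 (chr3:122564320-122564353, minus strand): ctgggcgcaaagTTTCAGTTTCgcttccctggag

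**Figure D4:**
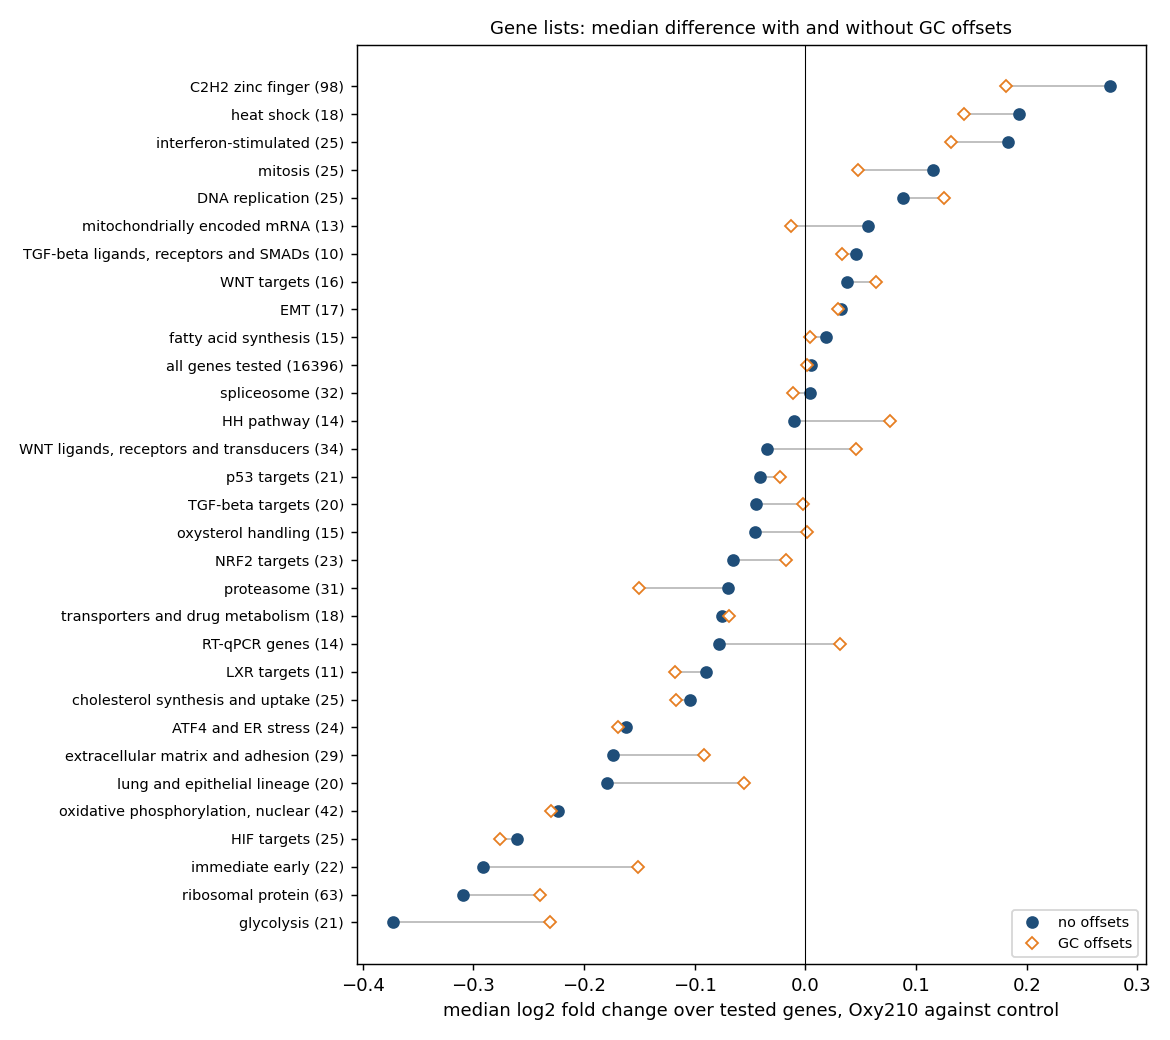
Median log2 fold change of Oxy210 against control for each gene list with at least 10 tested genes (number in parentheses), without GC offsets (filled circles) and with GC offsets (open diamonds). Without offsets the glycolysis (-0.37) and ribosomal protein (-0.31) lists are lowest, with GC offsets HIF targets (-0.28) and ribosomal proteins (-0.24), and C2H2 zinc fingers are highest in both (0.275, 0.18), while the median of all 16396 genes is near 0.

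Oxy210 and Oxy186 tumors, both at 50 mg/kg, were compared directly with 7 tumors each. The Oxy186 tumors differed more among themselves, with a median SD of log2 CPM over genes of 0.412 against 0.298 in Oxy210 and 0.318 in control tumors. In the paper's principal component plot the Oxy186 tumors it numbers 1 to 4 stood apart while the others mixed with the controls. The paper reads this as different responses, and used only those 4 tumors for its further analysis against controls. All 7 were kept here because no label divides them by response, so the counts below rest on another set of tumors than the paper's. Of 16361 genes tested, 0 were called (0%, smallest edgeR adjusted p = 0.126), with 514 lower and 150 higher in Oxy210 tumors at an unadjusted p under 0.05. With GC offsets 1 gene was called (0.00611%), the ribosomal protein pseudogene RPL6P27 on chromosome 18 (log2 difference, Oxy210 minus Oxy186, -1.16 ± 0.165, edgeR adjusted p = 0.026). The call was lost without Oxy186 replicate 2, 4 or 6 or Oxy210 replicate 1, 2, 4, 5, 6 or 7. DESeq2 and limma voom called 0 genes without GC offsets. RPL6P27 was at 3.44 to 4 log2 CPM in Oxy210 and 4.44 to 5.57 in Oxy186 tumors. Ribosomal protein genes had a median log2 difference of -0.365 between the compounds (32 of 63 lower, 0 higher). Nuclear oxidative phosphorylation genes had a median of -0.25 (7 of 42 lower, 0 higher). The mitochondrially encoded mRNAs were at 0.45 (6 of 13 higher, 0 lower). The background for these counts is 514 lower and 150 higher among all 16361 genes. The list counts were not recomputed without single tumors. C2H2 zinc finger genes (0.049), glycolysis genes (-0.12) and HIF targets (0.018) were closer to 0. For GLI1 the log2 difference was 0.31 with a 95% interval from -0.27 to 0.89, for CCND1 0.10 (-0.27 to 0.47) and for STING1 -0.54 (-1.31 to 0.22). These intervals leave room for differences between the compounds in either direction.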

How the data were processed

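Tumor RNA was sequenced from 21 A549-Luc2 xenografts, and 14 (control and Oxy210) were analysed in full. Per the paper's methods and the submitters' processing notes, the authors trimmed reads with Trimmomatic 0.39, aligned them with STAR 2.7.6a to GRCh38.p13 and GRCm39 together, and counted human genes with featureCounts of Subread 2.0.1. The deposited values are raw counts for 60651 genes. The strand setting is not given in the sources used here, so antisense and overlapping genes are uncertain. Deposited log2 CPM values cover no Oxy210 tumor and were not used.

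Counts were filtered (filterByExpr), scaled (TMM) and tested with edgeR 4.0.16 (quasi-likelihood) in R 4.3.3. A call needed more than 2-fold and an adjusted p up to 0.05. Log2 CPM used a prior count of 2. Exon GC and length were those of the union of a gene's exons over all transcripts in GENCODE 44 on GRCh38, and covered 99.8% of tested genes. Each tumor's GC trend, a spline with 4 df on genes averaging 1 log2 CPM or more, was used as offset. Tumor-level measures used exact permutation tests (3432 relabelings, smallest p 0.000583). limma 3.58.1 (voom, the study's test) and DESeq2 1.42.0 were alternatives. Simulated counts with known changes were used to test the code.

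The text names the RT-qPCR list, the 6 genes of smallest p in each direction and fit averaging 1 log2 CPM or more, and up to 3 members of each list. The comparison, the lists and their members were chosen with earlier results of these data known. Tumors of a group differed beyond sampling noise in every pair (lowest chi-square per degree of freedom 10.9).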

Additional observations from a re-analysis of the deposited data

Results flagged for a closer look

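Single tumors far from the others of their group were looked for in 224 groups of 7 values (Dixon's ratio), which chance marks in about 1 of 20 groups, and 11 were found. Oxy210 replicate 4 had a level of interferon-stimulated genes of 1.01 (other Oxy210 tumors -0.328 to 0.198), and 1.01 with the GC trend removed (-0.325 to 0.181). In the same tumor IFIT1 was at 4.55 log2 CPM (1.56 to 2.32 in the others) and PARP9 at 6.22 (5.28 to 5.59).

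The lncRNA AC016705.2 was at 2.42 log2 CPM in control replicate 1 (2.95 to 3.29 in the other control tumors), ZNF354C at -0.697 in control replicate 4 (0.193 to 0.784) and INSIG1 at 5.00 in control replicate 3 (5.45 to 5.76). SLCO1A2 was at 1.96 in control replicate 7 (0.625 to 1.02). DCN was at -1.37 in Oxy210 replicate 6 (0.349 to 0.90 in the other Oxy210 tumors). TCF7 was at 4.67 in control replicate 6 (3.64 to 4.04) and at 2.72 in Oxy210 replicate 5 (3.83 to 4.40).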

How the results depend on the processing

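The count of 0 called genes held with limma voom, voom with quality weights, robust edgeR, DESeq2 size factors in edgeR, library size alone, a minimum of 10 counts, a GC slope covariate and all 21 tumors in 1 fit. DESeq2 called 22 genes, no filter on low counts 7 (37902 genes tested), and the fit with the replicate number as a block 1, TFF2, with a smallest adjusted p of 0.0314. With GC offsets and the block 0 were called (smallest adjusted p 0.0862). Same-numbered tumors correlated between -0.428 and 0.343 in their deviations from the group means, and 1 of 7 correlated best with its own number. The labels do not say whether same-numbered tumors share more than the number. Genes at an unadjusted p under 0.05 numbered 4536 without a filter and 1450 with all 21 tumors in 1 fit, against 2302. Without 1 tumor each, 0 genes were called, 0 to 8 with GC offsets (8 without control replicate 6), and 1431 to 3179 and 1730 to 3017 passed an unadjusted p under 0.05. The lowest of both counts were without control replicate 1, and the highest without Oxy210 replicate 3 and control replicate 6. The PC1 difference, whose sign is a convention, was 62.4 with scaled genes and 6.62 with the GC trend removed. With GC offsets, then GC and length offsets, log2 fold changes crossed 0 for GLI1 (0.052, 0.053), GLI2 (0.062, 0.013), JUNB (0.092, 0.13), TCF7 (0.061, 0.0016) and TNFRSF19 (-0.021, -0.011), with both offsets for SMURF2 (-0.0015), and with library size alone for TCF7 (0.022). Without 1 tumor each, values ran from -0.13 to 0.024 for CCND1, -0.25 to 0.071 for GLI1, -0.039 to 0.15 for SMO, -0.12 to 0.11 for TCF7 and -0.066 to 0.14 for TNFRSF19. The cause was not tested. Of 456 gene and setting pairs, 436 kept direction and side of the threshold, and 8 passed it with DESeq2. The direct comparison with Oxy186 had 0 called genes without 1 tumor each, and 0 to 1 with GC offsets, alternatives chosen after seeing the data. The median standard error of a gene was 0.16 on the log2 scale.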

Other observations

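Further gene lists were measured in the Oxy210 and control tumors. Proteasome subunits had a median log2 fold change of -0.07 with 4 of 31 lower (12.9%, against 8.56% of all genes). With GC offsets the median was -0.15 with 6 lower (19.4%, against 7.56%). Without control replicate 1, 0 were lower, and with GC offsets 3 without control replicate 4. Spliceosome genes (32 tested) had medians of 0.0039 and -0.011 with GC offsets, NRF2 targets (23) of -0.066 and -0.018, and p53 targets (21) of -0.041 and -0.022. Of the p53 targets 3 were lower (14.3%, against 8.56% of all genes) and 0 higher, and 2 were lower with GC offsets (9.52%, against 7.56%). By p53 list level 5 of 7 Oxy210 tumors were below the lowest control tumor, and 2 with the GC trend removed. TGF-β ligands, receptors and SMADs (10) had medians of 0.046 and 0.033, and transporters and drug metabolism genes (18) of -0.075 and -0.069. Of the latter 3 were lower and 3 higher in each fit (16.7% each, against 5.48% to 8.56% of all genes).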
